A study of Mus musculus with 6 samples.

Results

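Ro cultures were compared with Control cultures in CD4+ (helper) T cells of the mouse on 4 of the 6 oligonucleotide arrays of a series on T cell genes regulated by retinoic acid (RA). The 4 arrays were chosen by their titles: 2 carry the name Ro (1 of them spelled RO) and 2 the name Control. The remaining 2 arrays come from RA cultures and are given only beside results. Cells of all groups came from spleen together with peripheral and mesenteric lymph nodes and were cultured in vitro. The labels do not expand Ro and give no dose for it, nor do they state the strain, age or sex of the mice. Only the label of Control replicate 2 lists what the culture held during its 5 days: IL2 at 100 U/ml, TGFb1 at 5 ng/ml, IL6 and TNFa at 20 ng/ml each, IL1b, IL23 and IL21 at 10 ng/ml each, and antibodies against IL4 (10 ng/ml) and IFNg (10 ug/ml). Whether the other Control culture and the Ro cultures received the same mixture is not stated. Nothing in the labels makes the replicates separate cultures or animals, so any p-value below measures only the spread between these arrays. Between the Ro arrays that spread may be technical. The Control arrays were not repeats of 1 RNA sample, since the Y-linked gene Eif2s3y read 855 on replicate 1 and 0.972 on replicate 2.

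Retinoic acid, a metabolite of vitamin A, acts through nuclear receptors of the RAR and RXR families, which bind DNA as pairs and switch genes on or off with the ligand. In T cells it is known for inducing gut homing receptors such as Ccr9 and the integrin chain Itga4, for favouring regulatory T cells and for restraining the Th17 fate. Classical targets limit the signal in turn: Cyp26a1 and Cyp26b1 degrade retinoic acid, and Dhrs3 reduces its precursor retinaldehyde. The comparison of Ro with Control asks how T cell genes differ between these cultures where no retinoic acid group is involved.

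The deposited values are probe set signals in arbitrary units on a linear scale. Control replicate 2 stood apart from every other array: its log2 values correlated at 0.911 to 0.917 with theirs, against 0.9607 to 0.972 among the remaining 5. Array medians ran from 16.2 (Control 2) to 23.7 (Control 1), so each array was centred on its median after log2(signal + 2.994). The ratio of 3 prime to 5 prime control probes for actin ran from 1.08 to 1.20, highest on Control 2. T cell markers were high on all 4 arrays: the 11 measured of 12 summed to between 30964 and 43788 signal units, and Cd4 read 1387 and 1791 on Ro 1 and Ro 2 and 1476 and 463 on Control 1 and Control 2. The CD8 chain Cd8a read 15.6 and 23.2 on the Ro arrays, 11.4 on Control 1 and 236 on Control 2. Because Control 2 differs this much, each gene below is given with both Control arrays apart, always in the order replicate 1, replicate 2.

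No probe set passed limma's test between Ro and Control. Of 27998 probe sets above the 40th percentile of their array on at least 2 of the 4 arrays, 0% had a Benjamini-Hochberg adjusted p under 0.05 (limma, 2-sided), and the smallest adjusted p was 0.716. At an unadjusted p under 0.05 there were 1148, where 1400 would be expected if no probe set differed. With 2 arrays against 2, an exact permutation test of a single value cannot give a p below 0.333. Leaving out Control 1, so that Control 2 alone stands for the group and is assumed to vary like the Ro arrays, gave 2364 calls, whereas leaving out any other array gave 0. The spread between the Control arrays was larger than that between the Ro arrays: over the probe sets tested, the median absolute difference was 0.637 between Control arrays and 0.351 between Ro arrays on the centred log2 scale.

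Position of the arrays was therefore used to describe the groups without a test. Both Ro arrays lay above both Control arrays on the centred scale for 8887 probe sets (31.7%) and below both for 2525 (9.02%). A gap of at least 2-fold between the nearest arrays remained for 146 probe sets with Ro higher (0.521%) and 164 with Ro lower (0.586%). Taking 1 probe set for each of 12385 genes, 4549 genes (36.7%) had Ro above both Control arrays and 833 (6.73%) below, with 62 (0.501%) and 46 (0.371%) past 2-fold. This lean to the upper side depended on the scaling. With quantile normalization the shares were 17.9% above and 14.5% below, and with each array centred on its tested probe sets 22.6% and 12.5%. The median tested probe set differed by 0.23 (log2, Ro minus Control) on the centred scale and by 0.0233 after quantile normalization, so every log2 difference of a gene below has this median subtracted, and every list median has that of the tested genes subtracted.

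Interferon response genes had higher signals in the Ro cultures. These genes are switched on by interferon receptors and encode antiviral enzymes, RNA sensors and immunity-related GTPases. Of 40 listed genes, 37 were measured, and 29 of them (78.4%) had both Ro arrays above both Control arrays, none below, against 36.7% and 6.73% of all genes. After quantile normalization 22 of the 37 still lay above (59.5%, against 17.9% of all genes) and 0 below (against 14.5%). The list's median log2 difference was 1.83, where the median gene is 0. That value rests largely on Control 2: the list's median was 0.44 against Control 1 and 2.88 against Control 2, comparisons that share the Ro arrays.

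The promoters of these genes are shown because many carry the letters of the interferon-stimulated response element, the sequence that STAT and IRF proteins recognise. The letters searched were GAAANNGAAA on either strand, where N is any base, and neighbouring matches may overlap. In RefSeq's windows of 300 bases (250 before to 50 after the start of a gene, GRCm38.p6), 1131 of 32851 (3.44%) held a match, and 371 of the 10046 tested genes with a window did (3.69%). Among the interferon response genes, 15 of the 25 tested members with a window held a match (60%), and 12 of the 21 that lay above both Control arrays (57.1%). Among those above both Control arrays with a match wholly before the start, the 6 with the widest gap between Ro and Control are printed. They are given 5′ to 3′ on the strand of the gene, with the match in capitals.
Gbp3: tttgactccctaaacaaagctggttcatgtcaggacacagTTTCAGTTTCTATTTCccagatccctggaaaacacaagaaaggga
Ifit3: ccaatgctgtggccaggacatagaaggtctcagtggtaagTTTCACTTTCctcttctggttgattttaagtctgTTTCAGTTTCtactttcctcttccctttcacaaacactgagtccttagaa
Oas3: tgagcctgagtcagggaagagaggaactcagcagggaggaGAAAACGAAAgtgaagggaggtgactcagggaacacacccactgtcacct
Stat2: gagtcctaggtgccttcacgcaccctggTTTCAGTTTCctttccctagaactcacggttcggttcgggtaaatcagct
Irgm1: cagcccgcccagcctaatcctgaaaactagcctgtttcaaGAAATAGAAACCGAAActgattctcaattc
Irgm2: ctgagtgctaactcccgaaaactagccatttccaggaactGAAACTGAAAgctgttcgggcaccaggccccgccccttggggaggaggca
They lie upstream of the annotated starts at chr3:142559959-142560043 (plus strand) for Gbp3, chr19:34583333-34583456 (plus) for Ifit3, chr5:120777685-120777774 (minus) for Oas3, chr10:128270248-128270325 (plus) for Stat2, chr11:48871421-48871490 (minus) for Irgm1 and chr11:58214873-58214962 (plus) for Irgm2. In Gbp3 and Irgm1 a pair of matches overlaps, and in Ifit3 a pair lies apart. A match describes these letters only and is neither a tested binding site nor a cause.

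Guanylate-binding proteins and the immunity-related GTPases, which attack vacuoles that hold pathogens, included Gbp3, the member with the widest gap. Gbp3 read 885 and 803 on the Ro arrays and 278 and 75.8 on the Control arrays, a log2 difference of 2.21 ± 0.53 (SE, n = 2 arrays a group). Gbp6 read 3183 and 3525 against 1793 and 176. The Ro arrays lay close to each other at both genes, whereas the Control arrays were far apart with Control 2 the lower. Irgm1 had signals of 1945 and 2296 in the Ro cultures and 1311 and 305 in the Control cultures. For Irgm2 they were 1696 and 2459 against 1214 and 272. Igtp, of the same family, ranged from 6398 to 6722 on the Ro arrays and from 3779 to 5408 on the Control arrays.

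Antiviral effectors followed the same order of arrays. Ifit3, which binds viral RNA in a complex with its relatives, read 2799 and 1538 on the Ro arrays against 811 and 18.4 on the Control arrays. Oas3, a synthase of the 2-5A messenger that activates RNase L, read 772 and 421 against 232 and 28.6. Control 2 was by far the lowest array at both, and at Ifit3 the Ro arrays also stood well apart from each other.
The RNA sensor Ddx58 had signals of 1002 and 985 in Ro and 565 and 82.8 in Control. Usp18, which removes the modifier Isg15 and dampens the receptor, stood at 2076 and 1238 against 1010 and 20.0. The 8 members whose groups overlapped were Isg20, Mx1, Mx2, Oas2, Rsad2, Bst2, Ifi27l2a and Gbp2. At Mx1, an antiviral GTPase, Control 1 (245) fell between Ro 1 (682) and Ro 2 (134), with Control 2 at 2.72. Gbp2 was the reverse case, with Control 1 lowest (1366) and Control 2 (3309) near Ro 2 (3926).

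Signal transducers of the pathway belonged to the same picture. Stat2, a subunit of the transcription factor complex, read 533 and 484 in Ro against 277 and 62.6 in Control, a log2 difference of 1.62 ± 0.59. Irf1, induced by interferon gamma, read 3120 and 4718 against 2266 and 1011. Irf7, which amplifies type I interferon production, read 1467 and 1132 against 922 and 84.3. All these genes had both Ro arrays above both Control arrays. The receptor chains Ifnar1 (767 and 1067 against 786 and 143) and Ifngr1 (1575 and 2569 against 1493 and 695) lay above on the centred scale by narrow gaps that quantile normalization closed. Ifngr2 lay the other way on the centred scale, at 126 and 160 in Ro and 273 and 148 in Control, although as deposited Ro 2 exceeded Control 2. The interferon gamma transcript Ifng itself read 17.6 and 85.5 on the Ro arrays, 3.86 on Control 1 and 2054 on Control 2.

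**Figure D1:**
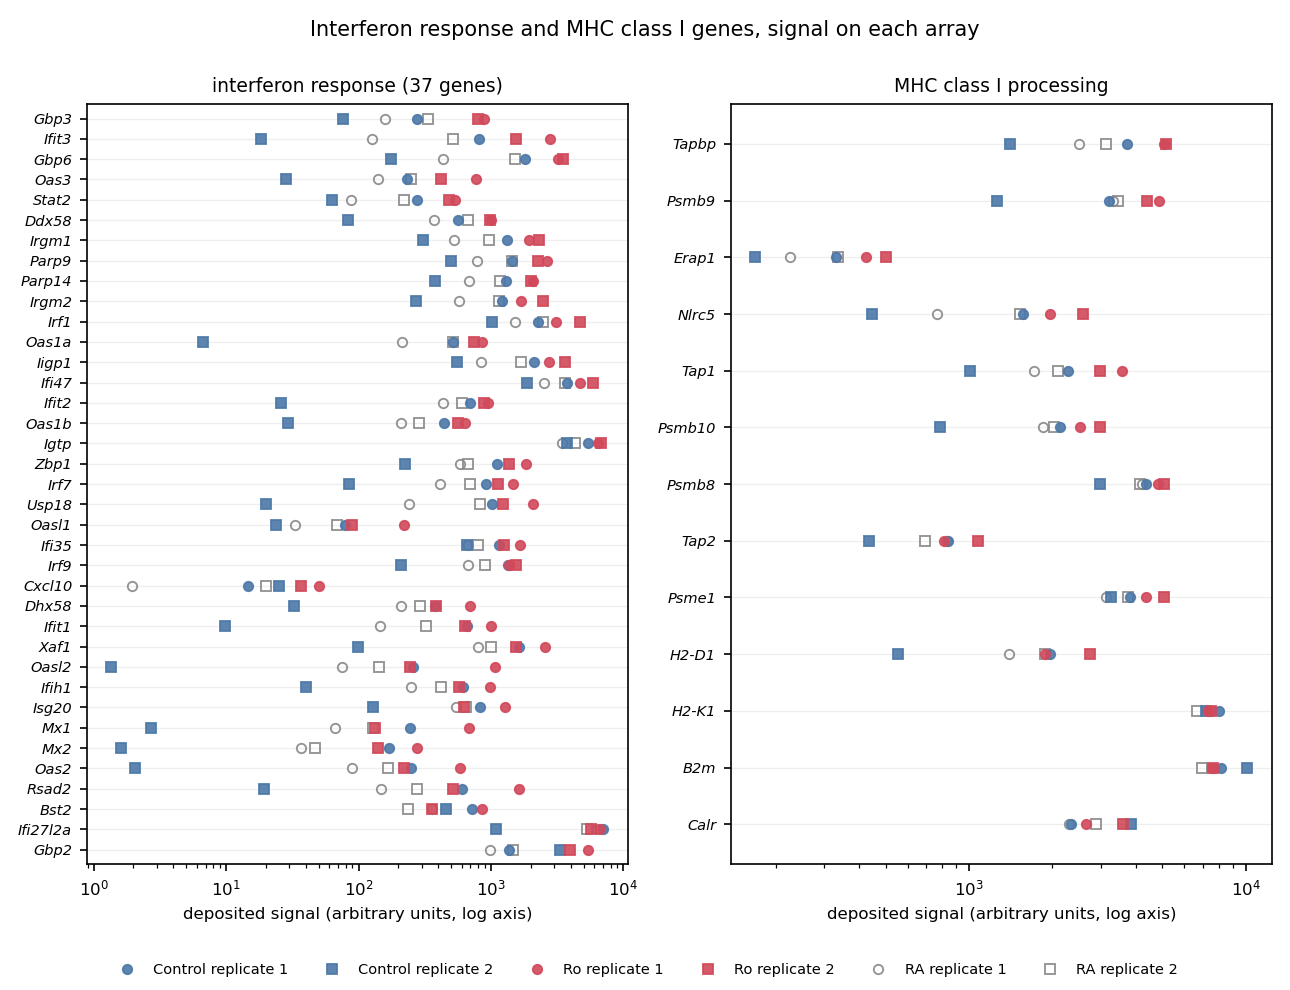
Deposited signal (arbitrary units, log axis) of the measured interferon response genes (left) and MHC class I genes (right), 1 point per array: red Ro, blue Control, open grey RA; circles replicate 1, squares replicate 2. Genes are ordered by the signed gap between the nearest Ro and Control arrays on the centred scale. Red points lie to the right for most genes and the blue square, Control 2, far to the left, as at Gbp3 with 885 and 803 against 278 and 75.8.

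Genes of MHC class I processing, which cut and load peptides for display, lay on the same side. Of 13 measured, 10 had both Ro arrays above both Control arrays (76.9%, against 36.7% of all genes), or 8 (61.5%, against 17.9%) after quantile normalization. None lay below under these scalings, but 1 did as deposited and 2 did with centring on tested probe sets. The list had a median log2 difference of 0.63 (0.24 against Control 1 and 0.90 against Control 2). The peptide transporter Tap1 read 3559 and 2983 in Ro against 2284 and 1008 in Control. The immunoproteasome subunit Psmb9 read 4857 and 4379 against 3210 and 1263. Nlrc5, the transactivator of class I genes, read 1959 and 2572 against 1567 and 448. In contrast with these processing genes, the class I chains themselves were close on all arrays: H2-K1 read 7331 and 7487 against 7986 and 7200, and B2m 7542 and 7589 against 8135 and 10135. Class II presentation genes did not share this order, with 3 of 9 above (33.3%) and 1 below (11.1%, against 6.73% of all genes) and a median of 0.12.

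The genes with the largest gap beyond both Control arrays were named by a rule of size: the 12 in each direction with the widest gap, at least 2-fold, where the brighter group lay above the 60th percentile on both arrays. All 24 had no overlap between the groups under each of 4 scalings, which follows largely from their choice by a wide gap. Each of the 24 genes had an adjusted p of 0.716 in limma.

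On the upper side, Cma1, the mast cell protease chymase, had the widest gap, with signals of 492 and 518 on the Ro arrays, 75.9 on Control 1 and 3.30 on Control 2 (log2 difference 4.22 ± 1.02). Tph1, the first enzyme of serotonin synthesis, read 201 and 235 against 37.5 and 6.47 and had the smallest unadjusted p on this side (0.00185, limma). Nacc2, a transcriptional repressor with a BTB domain, read 566 and 552 against 120 and 8.51, and all 4 of its tested probe sets had the same order. At these genes the Ro arrays lay close together and the Control arrays far apart.
Rab38, a small GTPase of lysosome-related organelles, read 80.4 and 87.7 against 20.4 and 14.7. Rgmb, a coreceptor of bone morphogenetic proteins, read 74.6 and 95.6 against 14.2 and 17.5, in the same order at 5 of 5 probe sets. Ap2b1, a subunit of the endocytic clathrin adaptor, read 773 and 777 against 236 and 194. Here the Control arrays lay near each other, and both were far below the Ro arrays.
Scin, a gelsolin relative that severs actin filaments, read 244 and 186 against 52.8 and 3.30. Rab5c, a GTPase of early endosomes, read 968 and 1258 against 411 and 182. Pacs2, a sorting protein between endoplasmic reticulum and mitochondria, read 236 and 277 against 84.2 and 68.1. The remaining genes were Pigt, part of the enzyme that attaches GPI anchors (296 and 308 against 123 and 83.2), and the interferon-inducible Gbp3 and Gbp7 (Gbp7: 1936 and 2058 against 842 and 168). At Ap2b1, Pacs2 and Pigt only part of the tested probe sets had the order, 1 of 2, 1 of 2 and 2 of 3. Averaging them gave log2 differences relative to the median gene of 0.75 in place of 1.51, 0.56 in place of 1.39 and 0.78 in place of 1.22.

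On the lower side, Xist, the RNA that silences an X chromosome in female cells, gave the widest gap: it read 0.479 and 0.838 on the Ro arrays, 241 on Control 1 and 1145 on Control 2 (log2 difference -7.48 ± 0.90, unadjusted p 0.000294 in limma). Osgin1, a gene of the oxidative stress response, read 6.51 and 15.5 against 90.7 and 55.6. Hmox1, the haem oxygenase of the same response, read 15.7 and 7.10 against 52.4 and 83.1. Both Control arrays were high at these stress genes, and both Ro arrays lay below their own median signal.
Among the other genes on this side, Nt5e (CD73), which turns AMP into adenosine, read 99.4 and 69.2 against 349 and 999. Tnfsf11 (RANKL), a ligand that drives osteoclasts and lymph node formation, read 44.8 and 36.7 against 138 and 178. The chemokine receptor Ccr4, found on Th2, regulatory and skin-homing cells, read 41.9 and 2.75 against 111 and 156. In each the 2 Ro arrays were the lowest of the 4, and at Nt5e Control 2 was the highest.
Adam19, a shedding metalloprotease, read 66.1 and 70.8 against 222 and 798. Prmt1, the main arginine methyltransferase, read 418 and 440 against 990 and 1938. Dhx9, an RNA helicase, read 162 and 197 against 453 and 507. Replicates of Ro lay close together at these 3 genes. The others were Evi5 (80.4 and 107 in Control, with 15.9 on Ro 2 and a slightly higher signal on Ro 1), Tmem51 (23.6 and 14.5 against 62.3 and 55.9) and Gprin3 (45.3 and 38.5 against 113 and 405). At Dhx9, Evi5 and Gprin3 only 1 of 2 tested probe sets had the order. With the probe sets of a gene averaged, the log2 difference relative to the median gene was -0.99 in place of -1.73 at Dhx9 and -1.31 in place of -2.44 at Evi5. Alox15, a lipoxygenase of eosinophils and macrophages that was too dim for the rule, had the next smallest unadjusted p on this side, 0.00238, with 0.851 and 1.46 against 24.9 and 19.1.

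**Figure D2:**
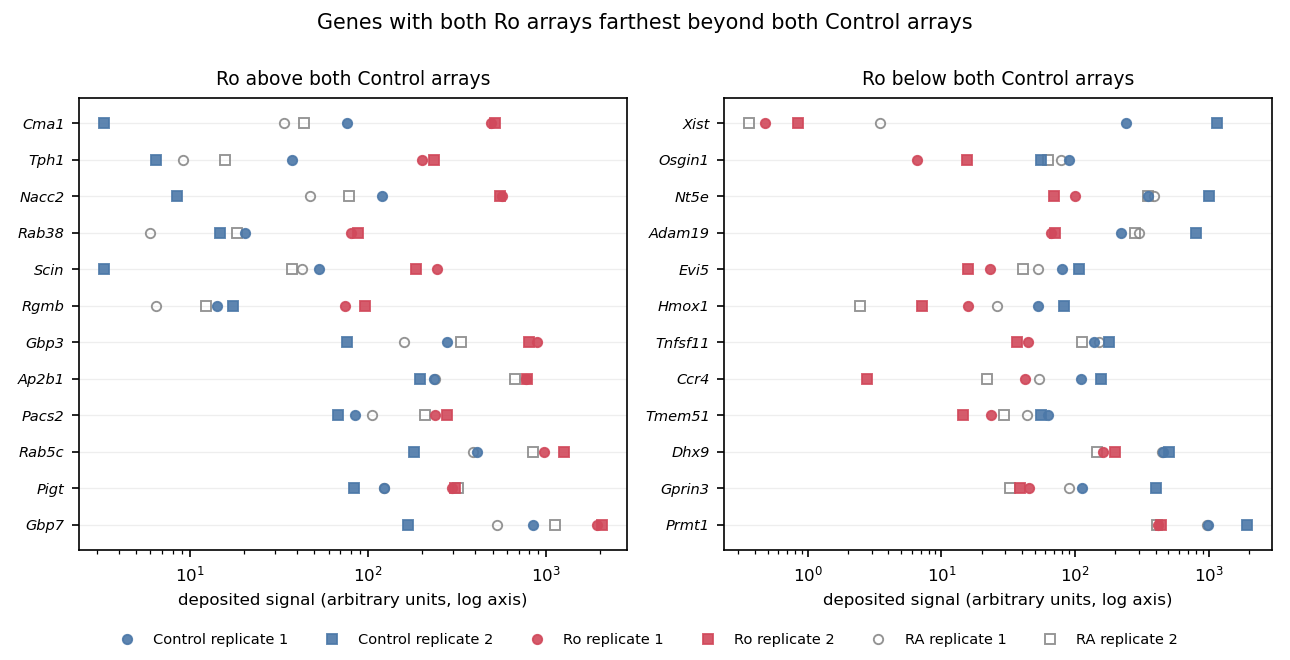
Deposited signal (arbitrary units, log axis) of the 12 genes with the widest gap above (left) and below (right) both Control arrays, 1 point per array: red Ro, blue Control, open grey RA; circles replicate 1, squares replicate 2. Red and blue points do not overlap at any of the 24 genes, from Cma1 (492 and 518 against 75.9 and 3.30) to Xist (0.479 and 0.838 against 241 and 1145).

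The RA arrays, which had no part in choosing these genes, were not on 1 side. Of the 62 genes with Ro above both Control arrays by 2-fold, RA 1 lay nearer the Ro mean than the Control mean at 12 and RA 2 at 34. Of the 46 below, RA 1 did so at 12 and RA 2 at 24. Ap2b1 shows the split, with 236 on RA 1 and 666 on RA 2, and so does Prmt1, with 979 and 408. By contrast, Nt5e read 386 and 352 on the RA arrays, close to Control 1, and Cma1 33.9 and 43.9, below Control 1.

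T helper lineage genes separated Control 2 from the other arrays more than they separated Ro from Control. Of 14 measured Th17 genes, none had Ro above both Control arrays (against 36.7% of all genes) and 2 had it below (14.3%, against 6.73%). After quantile normalization 6 lay below (42.9%, against 14.5%). The median log2 difference was -2.23, or -0.16 against Control 1 and -3.79 against Control 2. Il17a, the defining cytokine, read 10.6 and 18.0 on the Ro arrays, 10.9 on Control 1 and 1230 on Control 2. Il21 read 0.491 and 12.4 against 2.97 and 1566. The receptor Ccr6 read 32.1 and 28.3 against 33.0 and 534, and its ligand Ccl20, which failed the filter because only Control 2 was bright, 2.13 and 0.906 against 1.46 and 771. Thus Control 2, the array whose label names IL6, IL23, IL1b and TGFb1, had by far the highest signals of Il17a, Il21, Il24, Ccl20 and Ccr6. On Control 1 and both Ro arrays Il17a, Il21, Il24 and Ccl20 lay below the array's median signal, whereas Ccr6 lay above it. The 2 members below both Control arrays were the membrane proteins Tmem176a (55.5 and 57.3 against 98.6 and 480) and Tmem176b (75.2 and 84.1 against 146 and 712). Transcription factors of the list that several lineages share divided. Maf (88.5 and 71.0 against 93.9 and 1175), Ahr (59.6 and 42.2 against 41.8 and 552) and Irf4 (1341 and 1245 against 1283 and 2336) were highest on Control 2. Batf (991 and 1051 against 949 and 934) and Hif1a (3645 and 3426 against 3753 and 3906) were similar on all 4 arrays.

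Th1 genes lay above both Control arrays about as often as all genes did: 6 of 17 measured (35.3%, against 36.7% of all genes), or 3 (17.6%, against 17.9%) after quantile normalization, and none below. Their median log2 difference was 0.37, or 0.56 against Control 1 and 0.11 against Control 2, and it was -0.04 without Ro 1. The chemokine Ccl5 read 627 and 617 in Ro against 263 and 68.4 in Control (1.89 ± 0.54), and the receptor Cxcr3, which guides Th1 cells to inflamed tissue, 489 and 402 against 213 and 92.7 (1.34 ± 0.41). These are the list's 2 members past 2-fold (11.8%, against 0.501% of all genes). The Ro mean lay 2-fold above Control 1 at 7 of the 17 (41.2%, against 3.94% of all genes) and 2-fold below it at none. Against Control 2 it lay 2-fold above at 29.4% (against 22.4%) and 2-fold below at 29.4% (against 11%). Tbx21, the master factor of Th1 cells, read 223 and 299 against 110 and 143, and the IL12 receptor chain Il12rb2 117 and 137 against 37.7 and 73.7. Both lost the separation after quantile normalization. Eomes, a relative of Tbx21, read 240 and 180 against 126 and 20.7. The effector products did not share this order: Control 2 was the brightest array at Ifng (2054), Lta (3952), Ccl3 (3221) and Ccl4 (4126), and Ro read 185 and 163 at Ccl4, near the 124 of Control 1.

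Th2 genes were mixed. Of 13 measured, 3 lay above (23.1%, against 36.7% of all genes) and 3 below (23.1%, against 6.73%). Gata3, the Th2 factor, read 938 and 1043 in Ro, 953 on Control 1 and only 84.4 on Control 2. Il4 read 34.3 and 21.4 against 41.1 and 49.0, a gap of 0.03 on the log2 scale, and Il13 12.4 and 20.5 against 11.4 and 73.1. Of 17 regulatory T cell genes 1 lay above (5.88%, against 36.7% of all genes) and 4 below (23.5%, against 6.73%). Their median was -1.25, or -0.05 against Control 1 and -2.38 against Control 2. The 4 below were Nt5e, Nrp1 (49.8 and 22.0 against 104 and 291), Gpr83 (79.6 and 89.2 against 182 and 394) and Ebi3 (131 and 80.1 against 183 and 258). Nrp1 and Gpr83 are surface proteins of regulatory cells, and Ebi3 is a subunit of IL35 and IL27. Foxp3, the lineage factor, overlapped, at 36.7 and 21.3 against 40.3 and 154. Il2ra read 843 and 496 against 601 and 3062, and Ctla4 2325 and 2880 against 2462 and 4554, with Ro near Control 1 in both. Ikzf2 (Helios) was the member above, at 723 and 348 against 309 and 206.

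**Figure D3:**
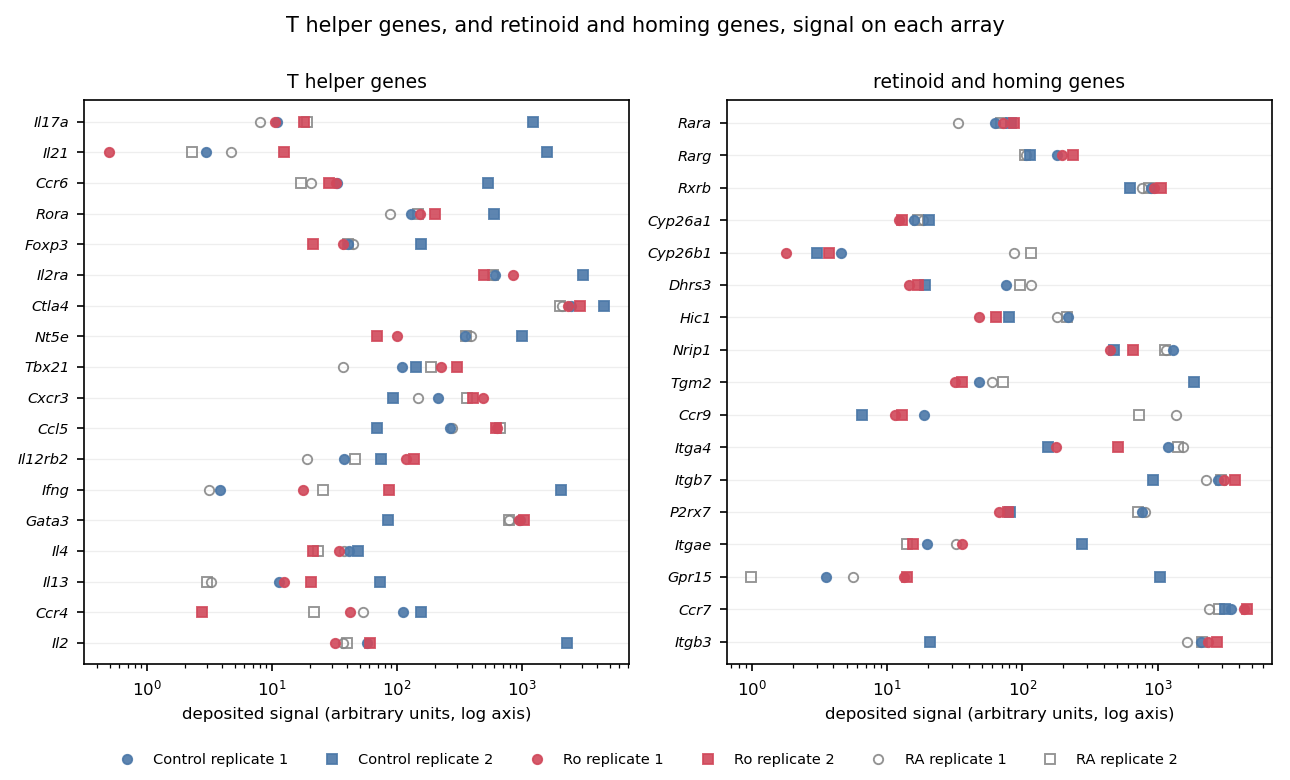
Deposited signal (arbitrary units, log axis) of T helper genes (left) and of retinoid and homing genes (right), 1 point per array: red Ro, blue Control, open grey RA; circles replicate 1, squares replicate 2. The blue square, Control 2, lies alone to the right at Il17a (1230), Il21 (1566) and Il2 (2288), whereas at P2rx7 Control 1 (759) lies with the RA arrays.

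The cytokine list, which shares Il17a, Il21, Il24, Ifng, Lta, Il4 and Il13 with the T helper lists above, followed Control 2. Of 18 measured, 1 lay above both Control arrays (5.56%, against 36.7% of all genes) and 2 below (11.1%, against 6.73%). The median was -1.74, composed of -0.14 against Control 1 and -3.49 against Control 2. Il2, the T cell growth factor, read 31.7 and 61.0 in Ro, 56.9 on Control 1 and 2288 on Control 2. Tgfb1 was the member above, at 1518 and 1642 against 1157 and 810. Below lay Il4 and Il9, the latter at 6.71 and 10.4 against 13.1 and 252. Il10 failed the filter, with 8.92 and 10.9 against 11.3 and 612.
Cytokine receptors had 9 of 24 above (37.5%, near the 36.7% of all genes) and 2 below (8.33%, against 6.73%), with a median of 0.23. Il10ra read 209 and 201 against 141 and 54.4. Il21r was below, at 209 and 340 against 496 and 666. Csf2rb, the shared chain of the IL3, IL5 and GM-CSF receptors, read 1124 and 569 in Ro, 723 on Control 1 and 8.39 on Control 2.

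Retinoid genes leaned to the lower side, on few members. Of 24 listed, 12 were measured. Of these, 2 had Ro above both Control arrays (16.7%, against 36.7% of all genes) and 4 below (33.3%, against 6.73%). After quantile normalization 1 lay above (8.33%, against 17.9%) and 5 below (41.7%, against 14.5%). The median log2 difference was -0.48 (-0.15 against Control 1 and -0.49 against Control 2). Dhrs3, a retinaldehyde reductase and retinoic acid target, read 14.4 and 17.0 on the Ro arrays, 75.5 on Control 1 and 19.0 on Control 2, beside 115 and 95.8 on the RA arrays. Hic1, a transcriptional repressor, read 47.9 and 63.7 against 217 and 79.0, beside 179 and 212 with RA. At both genes Control 1 lay with the RA arrays and Control 2 near the Ro arrays. Cyp26a1 read 12.3 and 12.8 against 15.7 and 20.2, all near the dim end, and Cyp26b1 failed the filter with 1.77 and 3.70 against 4.52 and 3.05, beside 87.1 and 116 on the RA arrays. Tgm2, a transglutaminase, was the fourth member below, at 31.8 and 35.6 against 47.4 and 1857.
Receptors differed less. Rara read 71.3 and 86.5 in Ro against 62.3 and 82.8 in Control. Rarg read 197 and 236 against 181 and 114 and Rxrb 944 and 1056 against 892 and 625, and these were the 2 members above. Nrip1, a corepressor, read 443 and 652 in Ro, 1291 on Control 1 and 473 on Control 2.

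Gut homing genes overlapped, with 1 of 9 measured above and 1 below (11.1% each, against 36.7% and 6.73% of all genes). Ccr9, the receptor for the intestinal chemokine, read 11.5 and 12.9 in Ro against 18.8 and 6.55 in Control, where the RA arrays read 1357 and 733. The integrin chain Itga4 read 178 and 505 against 1195 and 154, and its partner Itgb7, the member above, 3078 and 3710 against 2809 and 917. P2rx7, a receptor for extracellular ATP, was the member below, at 66.9 and 78.3 against 759 and 80.3, and here too the RA arrays (805 and 714) resembled Control 1. Gpr15, a colon homing receptor, read 13.3 and 14.1 against 3.55 and 1040. The Control arrays thus differed from each other at these genes, Control 1 being the higher at Itga4 and Control 2 at Gpr15.
Among 28 other homing receptors and ligands, 8 lay above both Control arrays (28.6%, against 36.7% of all genes). Past 2-fold were Ccl5 and Cxcr3 (7.14%, against 0.501% of all genes), also members of the Th1 list. Ccr4 alone lay below (3.57%, against 6.73%). Ccr7, which leads naive cells to lymph nodes, read 4315 and 4588 against 3457 and 3144. Itgb3 read 2349 and 2732 in Ro, 2089 on Control 1 and 20.7 on Control 2.

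Of 27 T cell receptor signalling genes, 16 lay above both Control arrays (59.3%, against 36.7% of all genes) and 1 below. After quantile normalization 5 did (18.5%), near the 17.9% of all genes. Their median was 0.34, made of -0.03 against Control 1 and 0.71 against Control 2. Plcg1, the phospholipase that makes the calcium messenger, read 1580 and 2360 against 1236 and 635. Cd247, the zeta chain, read 3090 and 3272 against 2607 and 955. Malt1, a protease of NF-kB signalling, was the member below, at 481 and 578 against 684 and 1137. Naive and quiescence genes had 7 of 18 above (38.9%) and none below, or 3 (16.7%) after quantile normalization, shares near those of all genes. Their median of 0.36 was -0.04 against Control 1 and 0.63 against Control 2. Dapl1, high in resting T cells, read 2054 and 3426 in Ro and 2565 on Control 1 but 24.5 on Control 2, and Klf4 lay highest on Control 2 (126).

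Costimulatory genes had 8 of 26 above (30.8%, against 36.7% of all genes) and 3 below (11.5%, against 6.73%). After quantile normalization 2 lay above (7.69%, against 17.9%) and 4 below (15.4%, against 14.5%). The 3 below on the centred scale were ligands. They were Tnfsf11 (values given with the widest gaps), Tnfsf14 or LIGHT at 34.0 and 24.3 against 82.6 and 275, and Cd80 at 46.5 and 29.6 against 72.9 and 59.7. Bcl6, the factor of follicular helper cells, read 255 and 354 against 252 and 98.5, while Tox2 of the same list was below at 32.9 and 35.3 against 60.5 and 358. TGF-beta signalling genes had 9 of 17 above (52.9%, against 36.7% of all genes), such as Smad1 (311 and 389 against 211 and 187). After quantile normalization 29.4% lay above, against 17.9%. On the centred scale 1 lay below (5.88%), Ltbp3 (13.0 and 12.3 against 29.9 and 109). SOCS and STAT genes had 8 of 17 above (47.1%, against 36.7% of all genes) and none below (against 6.73%). After quantile normalization 3 lay above (17.6%, near the 17.9% of all genes) and 1 below (5.88%, against 14.5%). The inhibitor Cish, induced by IL2, read 682 and 415 in Ro, 556 on Control 1 and 3185 on Control 2. Of 17 survival and death genes, 6 lay above (35.3%, near the 36.7% of all genes), with Birc2 at 939 and 1000 against 558 and 400. Below lay 1 (5.88%, near 6.73%), Bcl2l2 at 96.8 and 93.2 against 137 and 280.

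Granzyme and granule genes divided the replicates. Of 11 measured, 3 lay above both Control arrays (27.3%, against 36.7% of all genes) and none below. The list's median was 0.82 against Control 1 and -1.89 against Control 2. Gzmb, the main killer protease, read 3276 on Ro 1 but 598 on Ro 2, and 456 on Control 1 but 3583 on Control 2. Gzma read 1758 and 18.1 against 86.7 and 664. At Gzmb and Gzma the replicates of each group differed more than the groups. Serpinb9, an inhibitor of granzyme B, was steadier between the Ro arrays only, at 592 and 532 against 300 and 53.4.

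Cell cycle genes overlapped for the most part. Of 42 measured, 5 lay above both Control arrays (11.9%, against 36.7% of all genes) and none below (against 6.73%). Those 5 are subunits of the replicative MCM helicase (Mcm2, Mcm3, Mcm4, Mcm6 and Mcm7). After quantile normalization 1 gene of the list lay above (2.38%, against 17.9%). Mcm4 read 1982 and 1316 against 897 and 360. The proliferation marker Mki67 read 5196 and 2222 in Ro, 3087 on Control 1 and 299 on Control 2. The list's median of 1.06 was 0.25 against Control 1 and 2.26 against Control 2, Control 2 having the lower signals. Glycolysis and hypoxia genes had the mirror pattern, with medians of -0.17 and -2.05. Of 24 measured, 1 lay above (4.17%) and 2 below (8.33%, against 6.73% of all genes). After quantile normalization 10 lay below (41.7%, against 14.5%). The glucose transporter Slc2a1 read 302 and 393 in Ro, 415 on Control 1 and 1983 on Control 2. Bnip3, a mitophagy receptor induced by hypoxia, was below at 307 and 283 against 407 and 3258, and so was Tpi1, a glycolytic enzyme, with 1813 on Control 1 and 5510 on Control 2.

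None of the lists that follow had a member past 2-fold. Over all genes 36.7% lay above and 6.73% below, or 17.9% and 14.5% after quantile normalization. Cholesterol and fatty acid genes had 6 of 23 above (26.1%), none below and a median of -0.11, with Srebf2 at 850 and 1185 against 720 and 155. Respiratory chain genes had 8 of 29 above (27.6%) and a median of -0.25, although after quantile normalization 11 lay below (37.9%) and none above. Stress genes of the unfolded protein and amino acid responses had 2 of 26 above (7.69%) and 1 below (3.85%), which was Ddit4 at 1305 and 1132 against 1877 and 4078. Early genes had 2 of 21 above (9.52%) and 1 below (4.76%), which was Fos at 249 and 180 against 326 and 227. Fos lay below on the centred scale, although as deposited Ro 1 exceeded Control 2. After quantile normalization 0 early genes lay above and 9 below (42.9%). Among metallothionein and zinc genes, Mt2 read 53.1 and 28.1 in Ro and 51.7 on Control 1 but 5869 on Control 2.

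**Figure D4:**
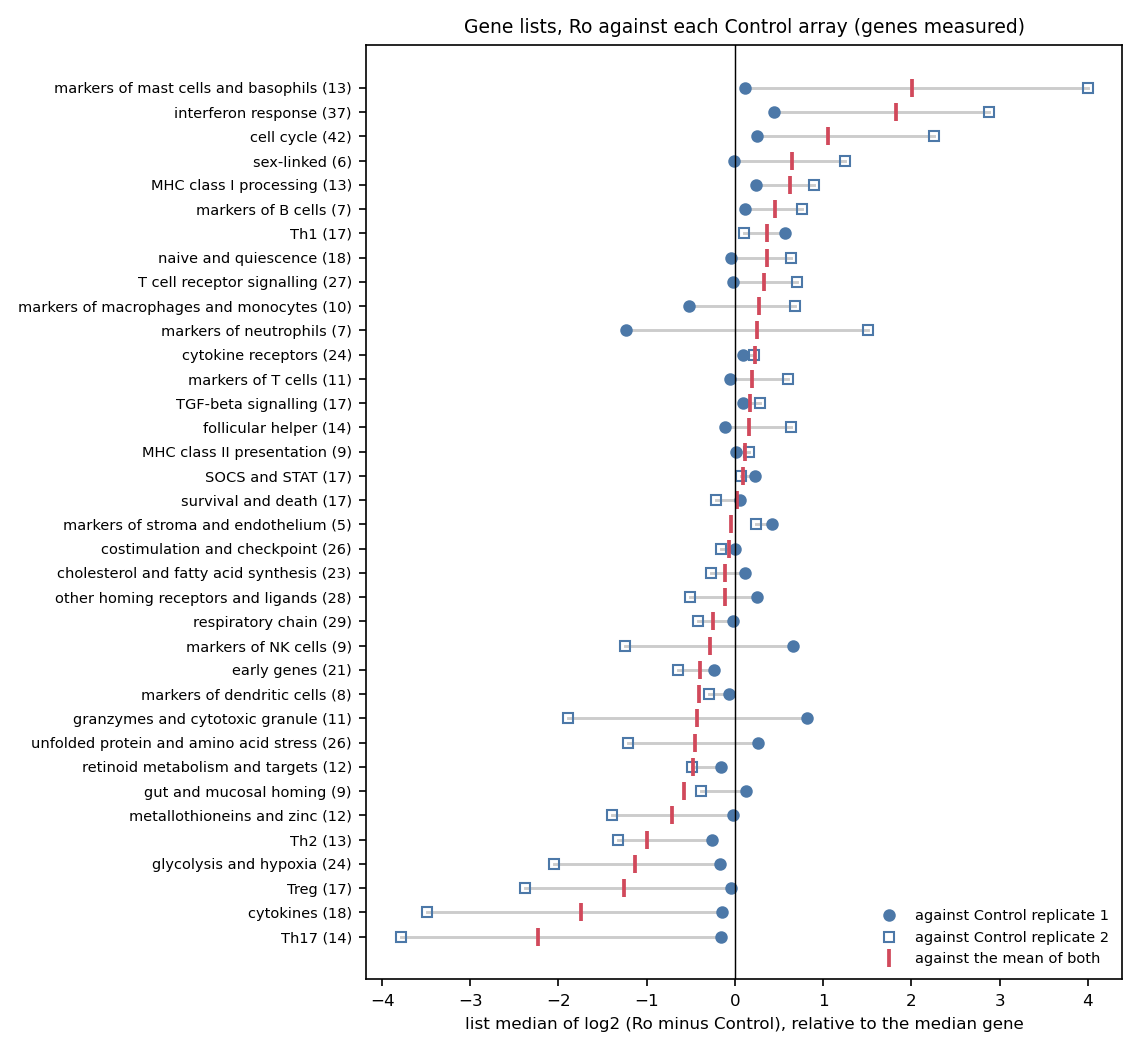
Median log2 difference of each gene list with at least 5 measured genes, Ro minus Control, relative to the median gene, against Control replicate 1 (filled circle), Control replicate 2 (open square) and the mean of both (red bar); measured genes in brackets. For most lists the square lies farther from 0 than the circle, by much for Th17 (-0.16 and -3.79) and by little for cytokine receptors (0.09 and 0.22), while the interferon response lies on the right for both (0.44 and 2.88).

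Given each Control array apart, the Ro mean lay 2-fold or more above Control 1 for 3.94% of genes and below it for 1.82%, against 22.4% and 11% for Control 2. Both comparisons share the Ro arrays. Against Control 1 alone, the widest gaps on the upper side were those of Cma1, Tph1, Rgmb, Nacc2, Rab38, Scin and Ap2b1, joined by Acsl3, a fatty acid activating enzyme (51.3 and 52.2 against 13.9). On the lower side Xist was joined by P2rx7, Prg2, Fam102b, Osgin1, Dhrs3, Grtp1 and Lncpint. Fam102b read 362 and 524 in Ro, 2784 on Control 1 and 75.0 on Control 2, beside 2425 and 2158 with RA. Grtp1 read 2.57 and 19.6 in Ro and 84.9 on Control 1, beside 213 and 157 with RA. At both, as at P2rx7, Dhrs3, Hic1, Nrip1 and Itga4, Control 1 lay with the RA arrays rather than with Control 2. Prg2, the eosinophil granule protein, read 24.6 and 24.2 against 218 and 9.34.
Against Control 2 alone, the genes with the widest gaps on the upper side were Ccl6, Eif2s3y, Pdlim4, Gm20559, Ifi213, Ifit1bl1, Mcpt8 and Itgb3. The chemokine Ccl6 read 3551 and 1567 in Ro and 3.42 on Control 2, with 4678 on Control 1. On the lower side stood Xist, Timp1, Crispld2, Il21, Mt2, Il24, Gpr15 and Il17a. Timp1, an inhibitor of metalloproteases, read 7.06 and 13.7 in Ro and 1909 on Control 2, with 15.8 on Control 1.

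Markers of other cells moved with some of these results. Mast cell and basophil markers had 6 of 13 measured above both Control arrays (46.2%, against 36.7% of all genes) and none below (against 6.73%). After quantile normalization 5 lay above (38.5%, against 17.9%). Above Control 1 alone lay 7 (53.8%, against 59.6% of all genes). Summed over the 17 of 19 markers on the array, the list came to 6616 and 4374 signal units on the Ro arrays, 4369 on Control 1 and 258 on Control 2. The RA arrays had 1779 and 1584. Mcpt4 was below the filter on all 4 arrays compared. Past 2-fold were 3 (23.1%, against 0.501% of all genes). These were Cma1, Tph1 and Tpsg1, a tryptase (37.2 and 24.4 against 7.04 and 6.42). Cpa3, the carboxypeptidase of mast cells and basophils, read 1711 and 1410 against 914 and 15.6. Mcpt8, a basophil protease, read 2599 and 1070 in Ro, 1955 on Control 1 and 6.72 on Control 2, and the IgE receptor chain Fcer1a 397 and 410, 454 and 4.87. In a bulk sample fewer cells of a type and less RNA per cell cannot be told apart. Mast cell genes were thus well above Control 1 at Cma1, Tph1 and Tpsg1, whereas at Mcpt8 and Fcer1a Control 1 lay between or near the Ro arrays.
Macrophage and monocyte markers (13 of 14 on the array) summed to 1192 and 490 in Ro, 1941 on Control 1 and 174 on Control 2, with C1qa, C1qc and Marco below the filter on all 4. Neutrophil markers (9 of 11) summed to 616 and 180, 894 and 95.8, and 1 of 7 measured lay below both Control arrays (14.3%, against 6.73% of all genes). NK markers (14 of 16) summed to 4578 and 1448, 1717 and 4614, with Ncr1, Klra1, Klra7 and Klra8 below the filter. B cell markers (12 of 14) summed to 2242 and 4224, 2831 and 1365. In these 4 sums the Ro and Control arrays overlapped. Both Ro arrays lay above both Control arrays in the sum of the mast cell list, by a narrow margin to Control 1, and also in those of dendritic cells (11 of 12 markers; 5491 and 5296 against 4498 and 4589, Xcr1 below the filter) and of stroma and endothelium (12 of 12; 928 and 1268 against 717 and 180). In the last, Col1a1, Pdgfrb, Pdgfra, Cdh5 and Dcn were below the filter on all 4 arrays. Most of the dendritic sum was Ccr7 alone (4315 and 4588 against 3457 and 3144), a gene named above for naive cells. Of 8 measured dendritic markers, 1 lay above both Control arrays and 1 below (12.5% each, against 36.7% and 6.73% of all genes). Their median log2 difference was -0.41. The part of these cell types in the gene differences was not tested.

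Sex-linked genes divided the arrays in another way. Eif2s3y, a gene of the Y chromosome, read 967 and 809 in Ro, 855 on Control 1 and 0.972 on Control 2. Kdm5d and Uty, also Y-linked, read 167 and 185 against 148 and 9.04, and 94.9 and 113 against 85.0 and 10.9. Control 1 thus had Y-linked signals like those of Ro together with Xist at 241, while Control 2 had Xist at 1145 and these Y-linked genes from 0.972 to 10.9. The RA arrays had Xist at 3.48 and 0.364. The part of this difference in the other genes was not tested.

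**Figure D5:**
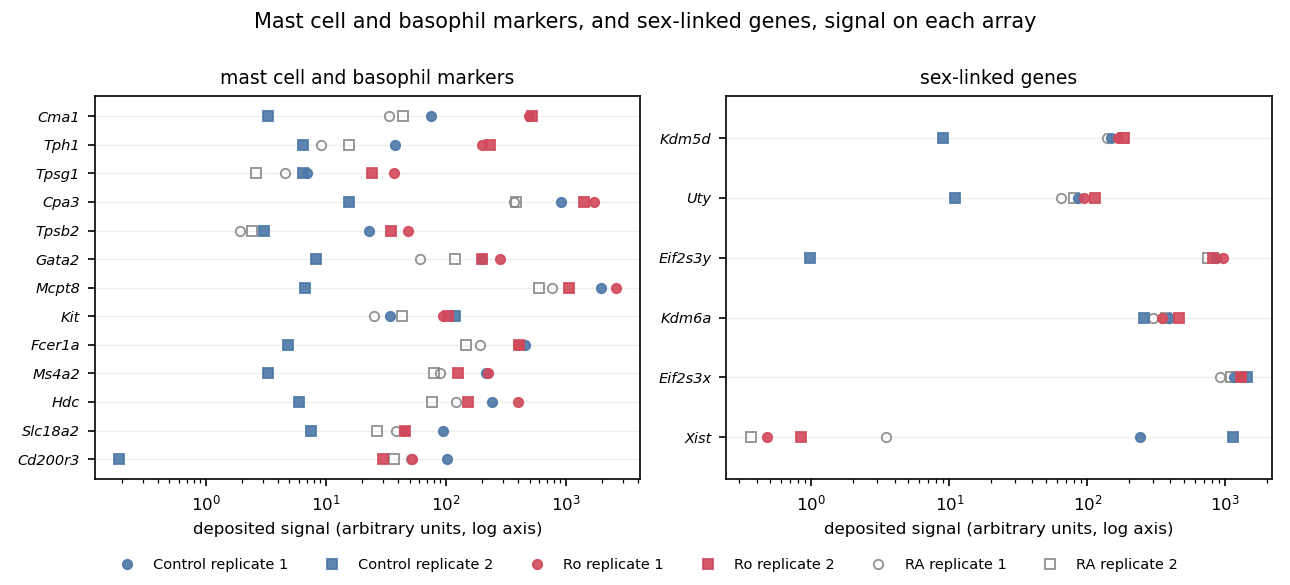
Deposited signal (arbitrary units, log axis) of measured mast cell and basophil markers (left) and sex-linked genes (right), 1 point per array: red Ro, blue Control, open grey RA; circles replicate 1, squares replicate 2. Control 2 lies far to the left at most mast cell markers and at the Y-linked genes, and both Control arrays lie to the right at Xist (241 and 1145).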

How the data were processed

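Intensity values of 45101 probe sets on 6 arrays were used as deposited; the authors made them with MAS5, per the submitters' processing notes, from 2 ug of total RNA labelled with biotin, per the labels' protocols. The scaling target and the version are not stated. The 64 control probe sets were left out. Signals became log2(signal + 2.994), the pseudocount being the 20th percentile of all values, and each array was centred on its median. Tests used limma 3.58.1 in R 4.3.3 (lmFit, eBayes with an intensity trend, Benjamini-Hochberg, threshold 0.05) on the 2 Ro and 2 Control arrays, with no block; p-values refer to centred values before the median is subtracted. limma was tested on simulated data.

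Gene symbols came from GEO's platform annotation (34945 probe sets with 1 symbol, 932 with several, 9160 with none). Each gene was represented by its brightest tested probe set, leaving out _x_ and _s_ probe sets where it had another. Genes named were the 12 per direction with the widest gap, the 3 per direction with the smallest p, up to 4 members of a list past 2-fold (or 2 with the largest difference), 41 fixed genes, and up to 8 per direction against each Control array alone; further genes were chosen after their values were seen. The 38 lists hold 668 genes, 551 of them tested. Members and lists were chosen with earlier results of these data known. As a check for duplicated arrays, 0% of values were identical between any pair of the 4 arrays. The replicate numbers pair nothing in the labels, and the deviations of same-numbered arrays correlated at -0.032. Alternatives changed pseudocount, scaling, filter, variance model, probe sets per gene, samples in the fit and replicate block, and left out each array in turn.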

Additional observations from a re-analysis of the deposited data

How the results depend on the processing

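limma called 0 probe sets under every alternative other than leaving out Control 1 (leaving out an array in turn: 0 to 2364), including the replicate block (0, with 1711 at an unadjusted p under 0.05). The 146 probe sets above by 2-fold became 38 with the median pseudocount, 75 with the 60th percentile filter, 67 with centring on tested probe sets, and 536 to 4871 without 1 array. The 164 below became 37, 70, 306 and 341 without a filter, and 362 to 1776. The 8887 above by any gap became 4836 (quantile) and 5345 (tested median), and 12280 to 14523 without 1 array; the 2525 below became 4463, 4619, 5553 without a filter, 984 with the 60th percentile filter, and 5025 to 8987. Fewer arrays to exceed raises these counts by construction. As deposited, probe sets 2-fold above Control 1 went from 1014 to 659, below it from 836 to 1295, and below Control 2 from 2823 to 1742; tested-median centring gave 5346 below Control 2 and 3835 above it in place of 6442. The cause was not tested. The tested-median centring was chosen after seeing the data.

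The 25 named genes with the widest gap or smallest p kept their direction under every alternative run. Their choice largely fixes this. All Ro arrays lay at least 2-fold beyond all Control arrays at these genes, so leaving out an array could hardly change the direction. Of 38 list medians, 16 changed sign without Control 2, 11 without Ro 2, 4 without Ro 1, 2 without Control 1 and at most 5 otherwise; the interferon and MHC class I lists were not among them. Th17 and Treg kept their sign but went from -2.23 to -0.16 and from -1.25 to -0.05 without Control 2. With 2 arrays a group, the precision of every value is limited, and dim probe sets vary most.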
